A study of Mus musculus with 55 samples.

Results

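The hearts of PPARα-null (KO) mice given tridocosahexaenoin, the triglyceride of docosahexaenoic acid (DHA), were compared with the hearts of KO mice given a control gavage. The comparison used 10 of the 55 hearts of the series, 5 with the oil and 5 controls, chosen by the titles of the samples, and 1 array was hybridised for each heart. The array read 18194 named genes, each represented by its brightest probe set, and 8238 of these were tested because their linear signal exceeded 20 in 3 or more arrays of the series. All mice were male Sv129 animals that had eaten an AIN76A diet, with olive oil in place of corn oil, for 2 weeks. Their age is given as 9 to 12 weeks in a label field and as 2 to 6 months in the growth protocol. After a fast of 4 h they received 400 µL by gavage, and the hearts were taken 6 h later. The control gavage was 0.5% carboxymethyl cellulose (CMC) per the treatment protocol, while the treatment field of those mice reads none, so the comparison sets an oil against a gavage without fat. The KO mice were of the 129S4/SvJae substrain and PPARα-/-, with no tissue-specific deletion named in the labels, and the wild-type (WT) mice used below, 5 with the oil and 3 controls, were 129S1/SvImJ. Genotype and substrain therefore cannot be told apart. KO mice given triolein, trilinolein or trilinolenin, 5 hearts each, served to compare the DHA oil with triglycerides of 18-carbon fatty acids.

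PPARα is a nuclear receptor that binds fatty acids and switches on the genes of fat uptake and oxidation, which supply most of the energy of the heart. Polyunsaturated fatty acids such as DHA can also act through other PPARs, through membrane receptors and through their oxidation products. The hearts without PPARα show which transcripts respond to the oil when this receptor is missing.

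Ppara itself was read by 3 bright probe sets, but where these lie relative to the deleted part is not known here, so they check the genotype only in part. The brightest probe set lay between 6.93 and 7.61 in the 10 KO hearts on the log2 scale and between 8.00 and 8.59 in the 8 WT hearts, without overlap. In KO hearts it was not called (difference -0.18 ± 0.11, adjusted p = 0.42). All 10 ventricular cardiomyocyte markers were bright, and their summed signal was 17.1 to 17.2 in every KO heart (ranges are of log2 values). T and B cell markers (7 of 7 on the array) and liver, lung and thymus markers (8 of 8) were under the minimum in all 10 hearts. The array medians of the series ran from 2.554 to 2.613, and the difference between 3′ and 5′ probe sets of Actb, a measure of RNA integrity, was 0.80 ± 0.05 (SD, n = 5) with the oil and 0.80 ± 0.07 (SD, n = 5) without (exact permutation test, two-sided p = 0.929). The hearts are separate animals as far as the labels say. Below, p-values and standard errors of differences use 1 spread per gene between hearts of a group, pooled over all 12 groups of the series. They do not measure the spread of the 10 compared hearts alone.

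The oil changed the level of 292 genes (3.54% of those tested), of which 136 were higher (1.65%) and 156 lower (1.89%), at an adjusted p under 0.05 in a limma fit. Of these, 63 rose and 44 fell by 1.5-fold or more. The genes with the largest rises were Zbtb16 and Fkbp5, both known as targets of the glucocorticoid receptor, then Map3k6, Cyp2e1, Cyp1b1 and the chemokine genes Ccl6 and Ccl9. The largest falls were those of Aplnr, the receptor of the peptide apelin, Tfrc, the transferrin receptor that takes up iron, Nrep, Fam78a and S1pr3, a receptor of sphingosine 1-phosphate. The median difference over all tested genes was -0.0135. The values of the 5 oil hearts and the 5 controls did not overlap for 64 of the 136 higher and 65 of the 156 lower genes, against 2.91% of all tested genes.

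The number of called genes rested on few hearts, and on oil replicate 5 most of all. This heart was the farthest of the 5 from the control mean for 201 of the 292 called genes (68.8%). Averaged over the genes called higher, the oil hearts lay 0.46, 0.60, 0.63, 0.47 and 1.05 above the control mean in the order of replicates 1 to 5, and over the genes called lower they lay at -0.44, -0.47, -0.46, -0.26 and -0.80. All 292 genes kept their direction without oil replicate 5, with medians of 0.482 for the higher and -0.378 for the lower genes, but 43 genes were then called, all of them among the 292. The count was also moved by over 1.5 times without oil replicate 3 (194) or oil replicate 4 (505), and without control replicate 1 (179), 2 (161) or 3 (90). In a fit of these 10 hearts alone, which estimates each gene's spread from fewer arrays and from the compared groups only, 12 genes were called. The main fit gives every group the same spread. Oil replicates 1 and 5 had array weights of 0.478 and 0.472, where a lower weight means more spread around the group mean. The part of unequal spread in the fall from 292 to 12 was not tested.

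**Figure D1:**
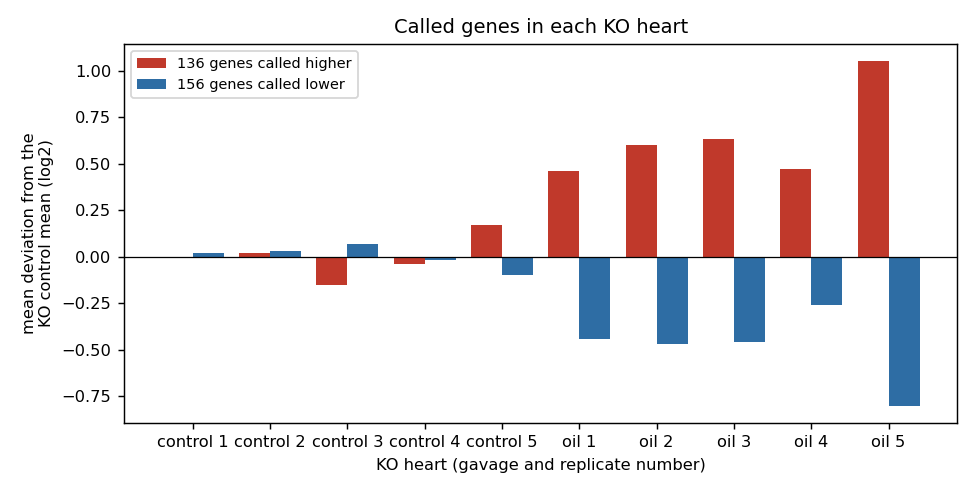
The mean log2 deviation from the KO control mean is drawn for each of the 10 KO hearts, over the 136 genes called higher (red) and the 156 called lower (blue). Oil replicate 5 shows the largest deviations, 1.05 and -0.80, and oil replicate 4 the smallest among the lower genes, -0.26.

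A core of 35 genes, 19 higher and 16 lower, was called with each of the 10 hearts left out in turn, and 30 of them had no overlap between the groups. This core was found from the values themselves, so it describes stability and is no further test. Of the 71 named genes that were called, 17 belonged to it, and 52 lost the call without oil replicate 5.

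Zbtb16, a zinc finger transcription factor, had log2 signals of 9.03, 10.09, 9.87, 10.13 and 10.38 with the oil and 8.35, 8.34, 7.67, 6.56 and 8.61 in controls. The groups did not overlap, and control replicate 4 was the lowest. The difference was 1.99 ± 0.32 (SE), a 3.98-fold rise (adjusted p = 0.000538), and stayed between 1.66 and 2.21 with each heart left out. Fkbp5, a co-chaperone of steroid receptors that damps glucocorticoid signalling, read 8.34, 9.05, 8.74, 8.34 and 10.30 against 7.38, 6.79, 6.25, 7.15 and 7.51. Oil replicate 5 was far above every other heart, and without it the rise of 1.94 ± 0.35 (adjusted p = 0.00163) was 1.60 (adjusted p = 0.0206). The second bright probe set of Fkbp5 gave 2.48, from a control mean of 3.99, under the brightness minimum of 4.32 on the log2 scale. The other bright probe sets of Zbtb16 gave 1.35 and 2.13.

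Cyp1b1, a cytochrome P450 that oxidises steroids and polyunsaturated fatty acids, was nearly constant in controls, at 4.38, 4.42, 4.37, 4.32 and 4.21. With the oil it read 6.18, 5.21, 5.69, 5.02 and 6.95, all higher, a difference of 1.47 ± 0.24 (adjusted p = 0.000538). The control mean of 4.34 was close to the brightness minimum of 4.32, so the size of the rise is uncertain. The second bright probe set of Cyp1b1 gave 1.43, from a control mean of 3.21, under that minimum.

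Ccl6, a chemokine of myeloid cells, read 8.51, 7.94, 8.48, 7.43 and 9.38 with the oil against 7.24, 7.01, 6.59, 6.52 and 7.30. The groups did not overlap, though oil replicate 4 came close to the highest control. The difference was 1.42 ± 0.25 (adjusted p = 0.00102). Ccl9, its neighbour in function, differed by 1.28 ± 0.28 (adjusted p = 0.00775), and by 1.07 (adjusted p = 0.0713) without oil replicate 5.

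Chac1, which degrades glutathione and is induced by amino acid and endoplasmic reticulum stress, read 5.25, 5.06, 5.25, 5.67 and 6.12 with the oil. In controls it read 4.25, 4.65, 4.14, 4.25 and 4.15, with a mean under the brightness minimum. All oil hearts were higher, by 1.18 ± 0.23 (adjusted p = 0.00269). Acer2, an alkaline ceramidase, rose by 1.12 ± 0.21 (adjusted p = 0.0017), although control replicate 5, at 7.71, lay above 3 of the 5 oil hearts.

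**Figure D2:**
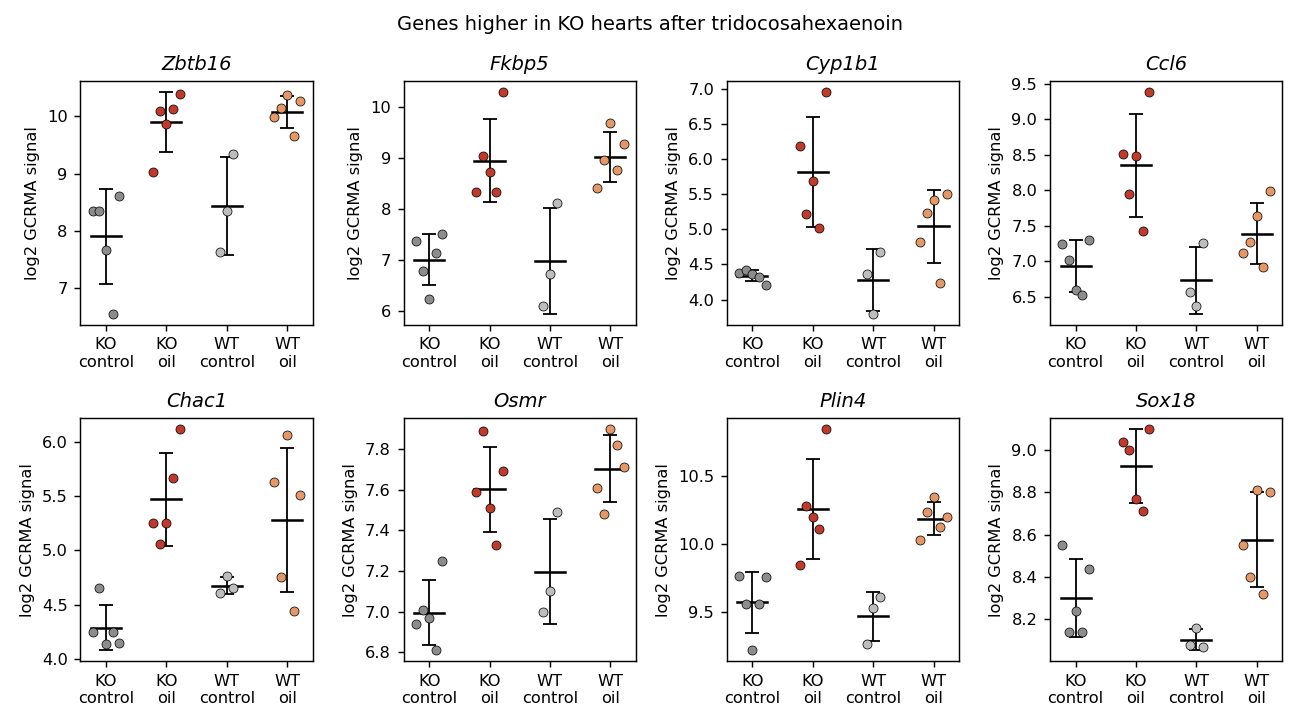
Log2 GCRMA signals of 8 genes called higher in KO hearts, each point 1 heart, with the mean (line) and SD (bar) of KO control (n = 5), KO oil (n = 5), WT control (n = 3) and WT oil (n = 5). In each panel the KO oil hearts lie above all KO controls.

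Other genes of the core that rose were Timp4, an inhibitor of matrix proteases, by 0.73 ± 0.14 (adjusted p = 0.0019), and Osmr, the receptor subunit of oncostatin M, by 0.60 ± 0.11 (adjusted p = 0.0023). Sox18, a transcription factor of endothelial cells, rose by 0.62 ± 0.12 (adjusted p = 0.0017). Plin4, a lipid droplet coat protein, read 9.85, 10.28, 10.20, 10.11 and 10.85 with the oil against 9.77, 9.56, 9.22, 9.56 and 9.76. The groups did not overlap, by a narrow margin, and the rise was 0.68 ± 0.13 (adjusted p = 0.00268). Igfbp3, which binds insulin-like growth factors, rose by 0.80 ± 0.18 (adjusted p = 0.0109) with control replicates 2 and 5 above oil replicate 2. Etfbkmt, which methylates the electron transfer flavoprotein of fat oxidation, rose by 0.54 ± 0.10 (adjusted p = 0.0023).

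Several of the largest rises lost the call without oil replicate 5. Map3k6, a stress kinase gene, rose by 1.49 ± 0.32 with no overlap (adjusted p = 0.00569) and stood at 1.24 (adjusted p = 0.061) without that heart. Its control mean of 3.63 was under the brightness minimum of 4.32, so the size of the rise is uncertain. Pparg, the PPAR best known from fat cells, read 6.67, 6.24, 6.26, 6.00 and 7.87 with the oil and 5.28, 5.67, 5.29, 5.57 and 5.89 in controls. No heart overlapped, but oil replicate 5 was well above the next, and the rise of 1.07 ± 0.25 (adjusted p = 0.013) became 0.75 (adjusted p = 0.121). Cyp2e1, a P450 that oxidises fatty acids, rose by 1.49 ± 0.42 (adjusted p = 0.033) with overlapping groups, from a control mean of 4.12, also under the minimum, and stood at 1.31 (adjusted p = 0.162) without it. Cdo1, which degrades cysteine, rose by 1.17 (adjusted p = 0.0141), with oil replicate 5 at 6.13 and the other oil hearts at 3.38 to 4.25, and without it the difference was 0.73 (adjusted p = 0.138). All 5 controls and the other 4 oil hearts were under the minimum, so Cdo1 was bright in oil replicate 5 alone of these 10 hearts and its fold has no firm base.

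Falls were led in size by Aplnr, with 5.73, 5.93, 6.03, 6.56 and 2.85 with the oil and 7.79, 7.49, 7.73, 7.01 and 6.76 in controls. The groups did not overlap, and oil replicate 5 was far below the rest. The fall of 1.94 ± 0.51 on the log2 scale (-1.94, adjusted p = 0.0247) was -1.29 (adjusted p = 0.205) without that heart. Tfrc read 6.89, 6.20, 6.06, 6.71 and 6.02 against 7.14, 7.64, 7.60, 8.44 and 7.01, again without overlap. Its difference was -1.19 ± 0.33 (adjusted p = 0.0299), and -1.10 (adjusted p = 0.139) without oil replicate 5. S1pr3 differed by -1.08 ± 0.27 (adjusted p = 0.0174), and by -0.70 (adjusted p = 0.163) without it. Nrep, a regulator of cell movement and wound repair, differed by -1.14 ± 0.24 (adjusted p = 0.00562), and by -0.79 (adjusted p = 0.0688) without it.

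Some falls held with each heart left out. Fam78a read 4.99, 4.42, 4.84, 4.55 and 4.45 with the oil and 5.76, 5.55, 6.17, 5.67 and 5.56 in controls. Every oil heart lay below every control, by -1.09 ± 0.22 on average (adjusted p = 0.00269). Meox2, a homeobox factor of endothelial cells and a partner of Tcf15 in heart fatty acid uptake, read 6.93, 7.22, 7.31, 6.70 and 6.26 against 7.77, 7.66, 7.90, 7.68 and 7.41, a difference of -0.80 ± 0.15 (adjusted p = 0.0023), and its second probe set gave the same -0.80. Cc2d2a, a gene of the primary cilium, Smtnl2, a relative of the muscle protein smoothelin, and Eepd1 differed by -0.80, -0.80 and -0.78, with no overlap, and the oil means of Cc2d2a and Eepd1 were under the brightness minimum. Among genes of the core named after their values were seen, Ccnd1, the cell cycle regulator cyclin D1, read 7.26, 7.41, 7.24, 7.49 and 7.23 against 7.72, 7.98, 8.26, 8.07 and 8.00, with neither group overlapping the other (-0.68 ± 0.14, adjusted p = 0.00302). Cavin2, a coat protein of caveolae, differed by -0.41 ± 0.07 (adjusted p = 0.000868) and Irx4, a transcription factor of the ventricle, by -0.73 ± 0.15 (adjusted p = 0.00487).

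**Figure D3:**
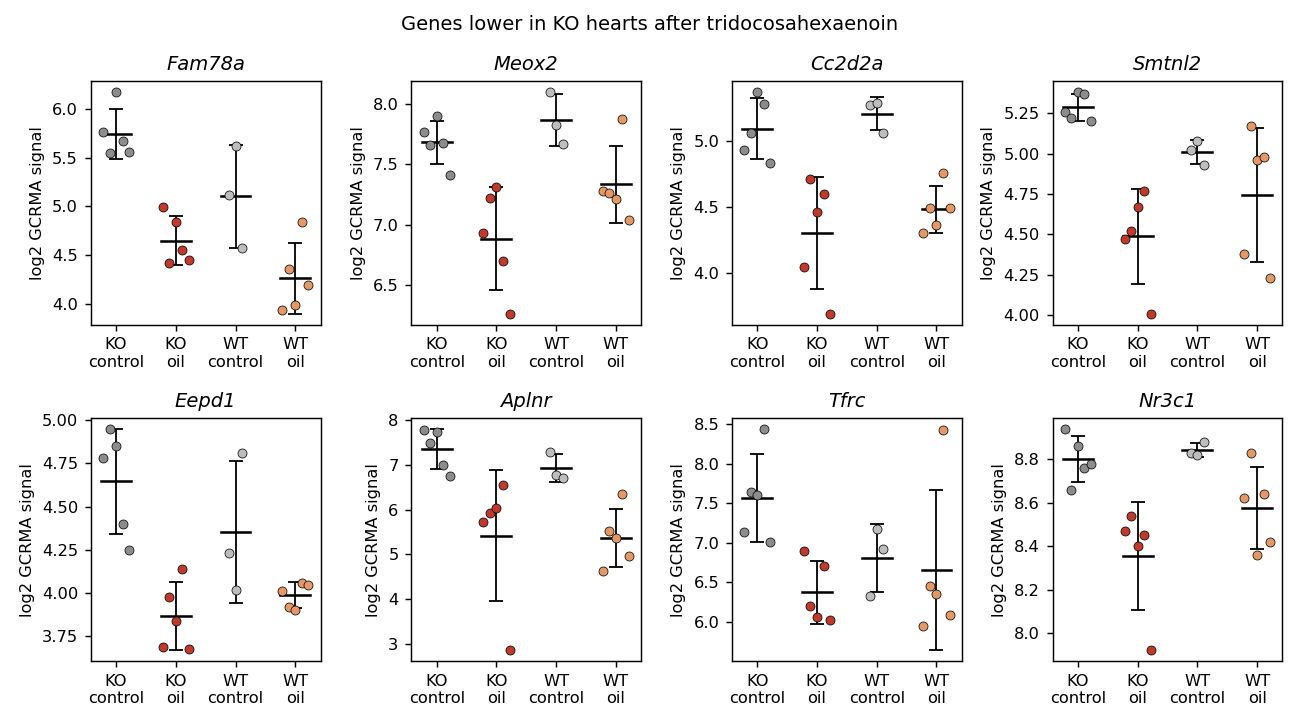
Log2 GCRMA signals of 8 genes called lower in KO hearts, each point 1 heart, with the mean (line) and SD (bar) of KO control (n = 5), KO oil (n = 5), WT control (n = 3) and WT oil (n = 5). In each panel the KO oil hearts lie below all KO controls, and oil replicate 5 is the lowest point of Aplnr at 2.85.

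Of 25 tested glucocorticoid responsive genes, 8 rose and 1 fell, against 1.65% called higher and 1.89% lower over all tested genes. The list median was 0.454 against -0.0135 over all tested genes, and 22 members were positive. Besides Fkbp5, Zbtb16 and Map3k6, the risers were Mt2, Klf15, a regulator of amino acid and lipid use, Sult1a1, Mt1 and Klf9. Klf15 read 9.21, 9.95, 9.78, 9.88 and 10.25 with the oil and 8.97, 8.99, 8.77, 9.23 and 9.55 in controls, where control replicate 5 overlapped the oil group (0.72 ± 0.19, adjusted p = 0.0237). Nr3c1, the glucocorticoid receptor, was the member that fell, at 8.47, 8.54, 8.40, 8.45 and 7.92 against 8.94, 8.66, 8.86, 8.76 and 8.78, without overlap (-0.44 ± 0.11, adjusted p = 0.0214). Without oil replicate 5 the list had 2 calls, Fkbp5 and Zbtb16, and a median of 0.305. This list and those below were chosen with earlier results of these data known, so their counts describe these hearts and are no test. Some genes are counted in more than 1 list, such as Klf15, Nr3c1, Mt1 and Mt2 of this one.

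Of 28 FoxO target and atrophy genes, 5 rose and none fell, against 1.65% called higher and 1.89% lower over all tested genes. The list median was 0.234, and 24 members were positive. They were Pdk4, which blocks glucose oxidation (0.77 ± 0.20, adjusted p = 0.0248), Klf15, Foxo3 (0.48 ± 0.13, adjusted p = 0.0299), Bnip3, a mitophagy receptor (0.47 ± 0.13, adjusted p = 0.0315), and Sesn1 (0.40 ± 0.11, adjusted p = 0.0283), of whose 4 bright probe sets 3 gave 0.39 to 0.43 and the dimmest 0.04. The ubiquitin ligase genes Trim63 and Fbxo32 differed by 0.08 and 0.14 and were not called. No member was called without oil replicate 5, and the median was then 0.186.

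Of 33 PPAR target genes, 3 rose (Pdk4, Plin4 and Etfbkmt), a larger share than the 1.65% called higher over all tested genes, and none fell. The list median was -0.0268, near that of all tested genes, with 15 members positive. Pdk4 read 12.44, 11.88, 12.05, 12.07 and 13.01 with the oil and 11.85, 11.50, 11.70, 11.18 and 11.36 in controls, so the groups just failed to overlap and oil replicate 5 was highest. It stood at 0.59 (adjusted p = 0.177) without that heart. Angptl4, which restrains lipoprotein lipase, had a difference of 1.22 ± 0.38 (adjusted p = 0.0656), Acot1 by 0.69 ± 0.30 (adjusted p = 0.204) and Plin2, a droplet coat protein, by 0.30 ± 0.12 (adjusted p = 0.152), and none of these passed the test. Ucp3 was under the minimum in both groups, and Ppard differed by -0.04 ± 0.12 (adjusted p = 0.913).

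None of 22 mitochondrial fatty acid oxidation genes, 15 peroxisomal genes, 42 oxidative phosphorylation genes or 20 genes of the tricarboxylic acid cycle was called. With 3.54% called over all tested genes, lists of these sizes would hold few calls or none, so the zeros say little about these pathways. Their medians were -0.0689, -0.0555, -0.0426 and -0.0606, against -0.0135 over all tested genes, and 3, 3, 2 and 1 members were positive. The share of positive genes over all tested genes is not given here, so these counts have no background to be read against. Among 28 tested genes that import fatty acids or coat lipid droplets, Plin4, Gpihbp1, which anchors lipoprotein lipase in capillaries (0.47 ± 0.12, adjusted p = 0.0212), and Lipe, hormone-sensitive lipase (0.49 ± 0.14, adjusted p = 0.0408), rose. Gpam, the first enzyme of triglyceride synthesis, fell by 0.25 on the log2 scale (adjusted p = 0.0351) as the only called gene of 17 of fatty acid synthesis. The shares over all tested genes were 1.65% called higher and 1.89% called lower. Without oil replicate 5 Plin4 was still called (0.53, adjusted p = 0.0327). Gpihbp1 (0.37, adjusted p = 0.156), Lipe (0.38, adjusted p = 0.231) and Gpam (-0.23, adjusted p = 0.145) then lost the call. Scd2, a desaturase, read lower in all oil hearts than in any control but was not called (-0.58 ± 0.18, adjusted p = 0.0569).

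Ppargc1b, a coactivator of mitochondrial genes, differed by -0.64 ± 0.18 (adjusted p = 0.0371) and, with Nr3c1, was 1 of 2 called falls among 25 nuclear receptors and coactivators, where Pparg was the called rise. Over all tested genes 1.65% were called higher and 1.89% lower. Without oil replicate 5 Ppargc1b stood at -0.43 (adjusted p = 0.261).

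**Figure D4:**
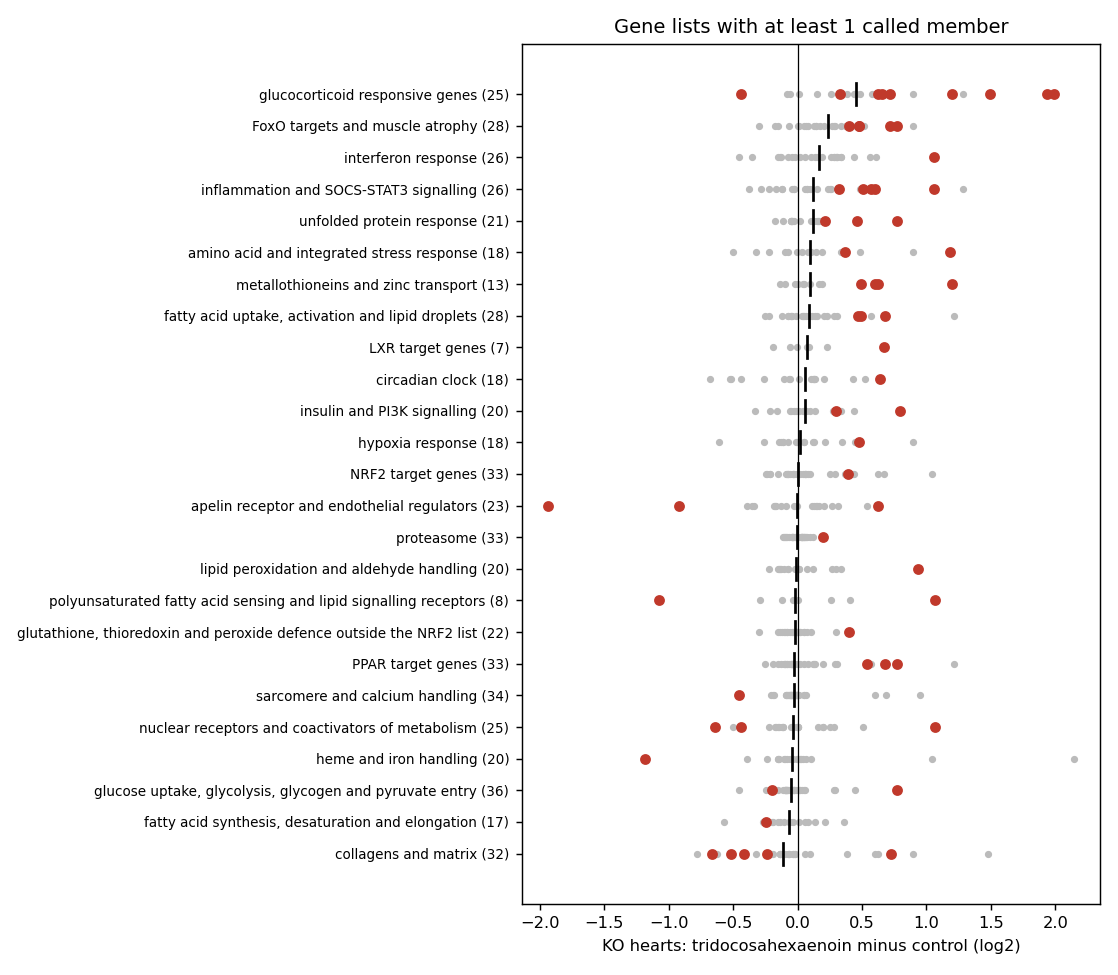
Log2 differences (oil minus control) in KO hearts are drawn for each tested gene of the gene lists that held at least 1 called gene, with the number tested in parentheses. Red points are called genes, grey points are not, and the black bar is the list median, highest for the glucocorticoid responsive genes (0.454).

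Of 13 metallothionein and zinc transport genes, Mt2 (1.20 ± 0.30, adjusted p = 0.0168), Mt1 (0.62 ± 0.16, adjusted p = 0.0184), Slc39a6 (0.60 ± 0.17, adjusted p = 0.0302) and Slc39a14 (0.49 ± 0.13, adjusted p = 0.0196) rose, and the list median was 0.0925. The share called higher over all tested genes was 1.65%. Metallothioneins bind zinc and are induced through metal response elements, by glucocorticoids and by oxidants, and the Slc39 proteins import zinc. Mt2 read 9.98, 9.93, 10.11, 8.39 and 11.02 with the oil and 9.11, 9.00, 8.20, 8.46 and 8.68 in controls. Oil replicate 4 lay among the controls and the other 4 oil hearts above all of them. None of the 4 was called without oil replicate 5, when Mt2 stood at 0.91 (adjusted p = 0.142).

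The promoters of Mt1 and Mt2, which rose together, and of Cry1 and Pim1, called genes with a FoxO element before the start (the table gives 2 starts for Pim1), are shown as the 250 bases before the start of each gene, 5′ to 3′ on the gene's strand, from RefSeq on GRCm38.p6. The last pair was chosen after the motif search. Cry1 differed by 0.64 (adjusted p = 0.0459) and lost the call with any of 6 of the 10 hearts left out. Without oil replicate 5 it stood at 0.46 (adjusted p = 0.263). They lie at chr8:94178839-94179088 (+) for Mt1, chr8:94172368-94172617 (+) for Mt2, chr10:85185055-85185304 (-) for Cry1 and chr17:29492835-29493084 (+) for Pim1. Capitals mark the motifs searched on both strands: in Mt2 a metal response core TGCGCNC and an antioxidant response core TGACNNNGC, and in Cry1 and Pim1 a FoxO element TGTTTAC, printed here as its reverse complement, with an E-box CACGTG. The capitals at the end of the Cry1 stretch are the part before the start of overlapping antioxidant response cores that run past it. Only the letters TGCGCNC were searched as a metal response core. Similar stretches with an A in place of the second G are neither marked nor counted below. Such letters are TGCACAC in the Mt1 stretch and TGCACCC in the Mt2 stretch. The 50 bases after the start were searched but are not printed. There a metal response core begins 20 bases after the start in Mt1 and 4 bases after it in Mt2.
Mt1: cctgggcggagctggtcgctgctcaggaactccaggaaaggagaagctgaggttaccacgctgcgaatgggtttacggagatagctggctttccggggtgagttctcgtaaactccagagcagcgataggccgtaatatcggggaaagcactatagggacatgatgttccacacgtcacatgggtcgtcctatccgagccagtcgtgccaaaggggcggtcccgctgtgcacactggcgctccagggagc
Mt2: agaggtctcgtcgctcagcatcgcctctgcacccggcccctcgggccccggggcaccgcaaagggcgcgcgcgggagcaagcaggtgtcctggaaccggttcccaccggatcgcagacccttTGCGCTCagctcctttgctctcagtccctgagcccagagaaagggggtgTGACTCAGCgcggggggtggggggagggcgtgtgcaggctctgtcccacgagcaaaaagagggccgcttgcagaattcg
Cry1: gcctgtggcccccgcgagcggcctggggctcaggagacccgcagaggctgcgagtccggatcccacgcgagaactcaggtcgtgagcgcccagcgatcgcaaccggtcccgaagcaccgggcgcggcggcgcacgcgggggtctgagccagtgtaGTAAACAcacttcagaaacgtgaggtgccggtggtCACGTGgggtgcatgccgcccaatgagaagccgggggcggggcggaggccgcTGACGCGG
Pim1: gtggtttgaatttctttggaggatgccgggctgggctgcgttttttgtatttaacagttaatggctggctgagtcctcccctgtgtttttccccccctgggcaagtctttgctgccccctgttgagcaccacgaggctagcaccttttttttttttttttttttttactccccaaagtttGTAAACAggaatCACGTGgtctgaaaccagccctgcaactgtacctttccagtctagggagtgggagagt
Over windows from 250 bases before to 50 bases after the start, the metal response core was in 29.8% of the promoters of 114 genes called higher and in 32.2% of those of 6761 tested genes. The FoxO element was in 7.89% of the higher, 3.48% of 115 lower and 3.18% of all tested promoters, which is 9 of 114 higher genes. A heat shock pair GAANNTTC was in 12.3% of the higher (14 of 114), 6.09% of the lower and 6.89% of all tested promoters. The glucocorticoid receptor core TGTTCT was in 14%, 20% and 14.4%, and the antioxidant response core in 20.2%, 15.7% and 17.5%. The E-box was in 13.2%, 9.57% and 12.4%, so its share among the higher genes was near that of all tested genes. A cyclic AMP element TGACGTCA was in 1.75%, 1.74% and 3.71%. Matches are letters in a window and say nothing of binding.

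Of 26 inflammation and SOCS-STAT3 genes, 5 rose and none fell, against 1.65% called higher and 1.89% lower over all tested genes, and the list median was 0.122. Socs3, the feedback inhibitor of cytokine receptors, read 6.47, 5.89, 6.29, 5.59 and 6.17 with the oil against 5.01, 5.52, 4.63, 4.82 and 5.15. The groups did not overlap (1.06 ± 0.28, adjusted p = 0.0237), but its other bright probe set gave 0.39. The kinases Pim1 (0.57 ± 0.15, adjusted p = 0.0254) and Pim3 (0.50 ± 0.14, adjusted p = 0.0264), Socs2 and Osmr were the other risers, and Osmr was the 1 member called without oil replicate 5.

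Stress of protein folding and amino acid supply was read in 2 lists, beside 1.65% called higher and 1.89% called lower over all tested genes. Of 21 unfolded protein response genes, Herpud1 (0.77 ± 0.17, adjusted p = 0.00807), Edem1 and Selenos rose, with a list median of 0.121, and of 18 genes of the amino acid and integrated stress response, Chac1 and Slc3a2 (0.37 ± 0.09, adjusted p = 0.0153), an amino acid transporter subunit, rose. Without oil replicate 5 Edem1 and Chac1 were still called, and Herpud1 (adjusted p = 0.0833), Selenos (adjusted p = 0.166) and Slc3a2 (adjusted p = 0.124) were not. None of 29 heat shock chaperones was called, and with 3.54% called over all tested genes a list of this size would hold few calls or none. Of 33 NRF2 target genes Mgst1, a microsomal glutathione transferase, rose by 0.39 ± 0.10 (adjusted p = 0.0172), and the list median was 0.00251. It was the only called gene of that list, a share close to the 3.54% over all tested genes. Mgst1 stood at 0.37 (adjusted p = 0.0947) without that heart. Hmox1, heme oxygenase, read 5.53, 8.55, 7.09, 4.17 and 6.77 with the oil against 5.42, 6.00, 5.12, 5.44 and 4.92. Oil replicate 2 was the highest and oil replicate 4 the lowest of all 10 hearts, and the difference of 1.04 ± 0.56 was not called (adjusted p = 0.33).

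More matrix genes were called lower than higher, where 1.89% of all tested genes were called lower and 1.65% higher. Of 32 collagen and matrix genes, Col6a1 (-0.52 ± 0.12, adjusted p = 0.0145), Col6a2, Col15a1 and Sparc fell and Timp4 rose, the list median was -0.111 and 8 members were positive. Without oil replicate 5, Timp4 was the 1 call of the list. Among 23 apelin receptor and endothelial regulator genes, Sox18 rose while Aplnr and Nrarp, a target of Notch signalling, fell. Jph2, which joins the sarcoplasmic reticulum to the surface membrane, differed by -0.46 ± 0.11 (adjusted p = 0.0154) and was the only called gene of 34 sarcomere and calcium handling genes, a share close to the 3.54% over all tested genes. It stood at -0.41 (adjusted p = 0.105) without oil replicate 5. Nppb, the natriuretic peptide of a strained ventricle, differed by -0.05 ± 0.31 (adjusted p = 0.956).

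Of 11 macrophage markers, Cd163 (0.73 ± 0.18, adjusted p = 0.0141) and Fcgr3 (0.60 ± 0.15, adjusted p = 0.0148) rose, 10 were positive and the median was 0.14. Among all tested genes 1.65% were called higher and 1.89% lower. The summed signal of the macrophage markers was 11.3 to 11.7 with the oil and 11.2 to 11.5 in controls, which overlap. The summed signal of the neutrophil markers, none of them bright enough to test, was 6.07 in oil replicate 5 and 4.39 to 4.84 in the other oil hearts, against 4.22 to 4.64 in controls, with Csf3r and Mpo under the minimum throughout. Ccl6 and Ccl9 were highest in oil replicate 5, where the neutrophil sum was also highest, while the macrophage sum of that heart, 11.30, was the lowest of the 5 oil hearts. Fcgr3 read 5.56 there, below control replicate 5 at 5.63. The part of such cells in the result was not tested. In whole hearts more cells of a type and more RNA per cell cannot be told apart. The summed atrial markers had a median of 14.01 with the oil and 12.97 in controls. Oil replicates 1, 3, 4 and 5 lay at 13.83 to 14.24 and oil replicate 2 at 12.42, while control replicates 1 to 3 lay at 12.44 to 12.97 and the other 2 at 14.05 and 14.15. Of 6 tested atrial markers 5 were positive, with a median of 0.641, and none was called. The part of unequal atrial tissue in the results was not tested. Of 10 fibroblast markers, Fstl1 fell by 0.52 on the log2 scale (adjusted p = 0.0132), beside the matrix genes.

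The same oil was given to WT hearts, which asks whether the response needed PPARα. The KO and WT contrasts share no heart. In WT hearts 153 genes were called (1.86%), and 59 of them were also called in KO hearts in the same direction, which is 20.2% of the KO and 38.6% of the WT calls. The WT count rested on single hearts: it was 0 without WT control replicate 2, 12 without control replicate 1, 10 without oil replicate 5, 33 without oil replicate 3 and 250 without oil replicate 4. The overlap and the WT calls given below rest on this count. Of the 136 genes higher in KO hearts 135 were positive in WT hearts, and of the 156 lower 149 were negative, against 68.8% of all tested genes with the same sign in both. The medians of these genes were 0.543 and -0.442 in KO and 0.409 and -0.297 in WT hearts, where the KO values chose the genes. Across the 8238 genes, which are not independent replicates, the differences correlated at r = 0.653 and rho = 0.541.

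Zbtb16 rose by 1.64 (adjusted p = 0.0158) and Fkbp5 by 2.04 (adjusted p = 0.00869) in WT hearts. Of the 35 core genes 17 were called in WT hearts in the same direction, among them Plin4 (0.72, adjusted p = 0.0143) and Etfbkmt (0.52, adjusted p = 0.0188). The difference between the KO and the WT effect was tested for each gene, and 0 genes were called (0%) by limma, with 255 at an unadjusted p under 0.05 and a lowest adjusted p of 1. The effect on Pparg was 0.94 ± 0.38 higher in KO hearts, that on Igfbp3 0.78 ± 0.28 higher, that on Tfrc -1.03 ± 0.50 and that on Hmox1 -1.63 ± 0.86, each with an adjusted p of 1 in limma. Hmox1 was called in WT hearts (2.67, adjusted p = 0.0253), as was Fgf16, a growth factor of the heart (-1.58, adjusted p = 0.0136), which stood at -0.86 ± 0.29 (adjusted p = 0.0817) in KO hearts. With 3 WT controls the difference between genotypes has wide errors, so a missed call does not show that the effects were equal.

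**Figure D5:**
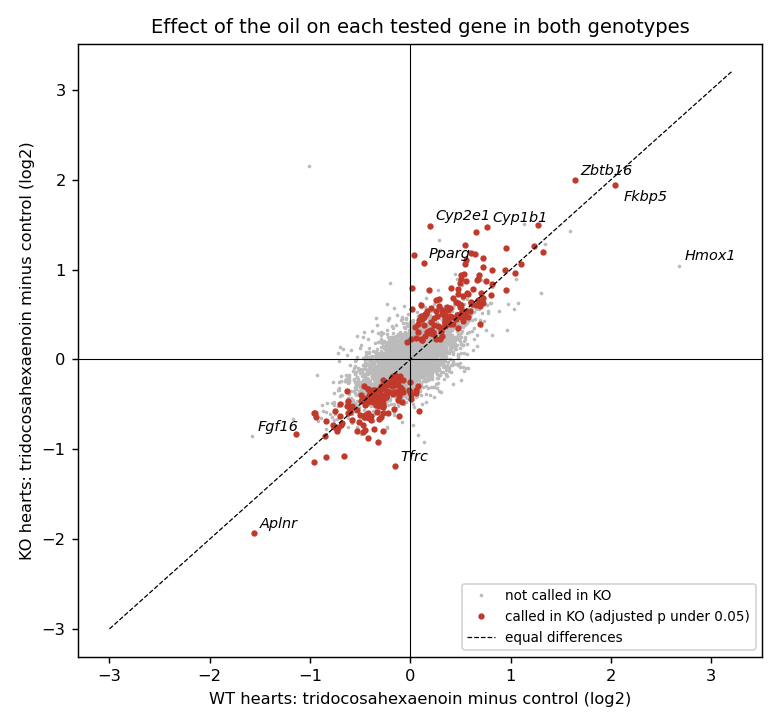
Each point is 1 of 8238 tested genes, with the log2 difference between tridocosahexaenoin and control in WT hearts on the x axis and in KO hearts on the y axis. The 292 genes called in KO hearts are red and lie mostly in the quadrants where both differences have 1 sign, and Hmox1 lies far to the right.

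The DHA oil was also set against the KO hearts given triglycerides of 18-carbon fatty acids with 1, 2 or 3 double bonds per chain, which asks what differs between oils rather than between an oil and no oil. Against the mean of the 3 oils 2 genes were called (0.0243%), against triolein 1 (0.0121%), against trilinolein 32 (0.388%) and against trilinolenin 27 (0.328%), at an adjusted p under 0.05 over the genes of each of these comparisons. Zbtb16 differed from the mean of the 3 oils by 0.22 ± 0.26 and Fkbp5 by 0.26 ± 0.29 (adjusted p = 0.866 and 0.854). The comparisons with the KO controls share those controls, so their values are only set side by side: Zbtb16 differed from control by 1.99 with the DHA oil, 1.52 with triolein, 1.66 with trilinolein and 2.14 with trilinolenin. With Wy14643, a synthetic PPARα agonist given in CMC, it differed by 1.70 (adjusted p = 0.0225), a rise in KO hearts that received no oil. Fkbp5 differed from control by 1.17 with Wy14643 (adjusted p = 0.188). Timp4 differed by 0.67 with Wy14643 (adjusted p = 0.0391), against 0.73 with the DHA oil. Cxxc5, a core gene named after its values were seen, differed by -0.65 with Wy14643 (adjusted p = 0.0413), against -0.71 with the oil. With Wy14643 6 of the 8238 tested genes were called in KO hearts.

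Cish, a feedback inhibitor of cytokine receptors, was higher with the DHA oil than with the mean of the 18-carbon oils, by 0.75 ± 0.15 (adjusted p = 0.0337). It read 9.36, 8.61, 8.55, 8.98 and 8.63, against means of 8.29 with triolein, 8.00 with trilinolein and 7.94 with trilinolenin. The call was lost, with adjusted p between 0.0503 and 0.202, without oil replicate 1, without triolein replicate 4, without trilinolein replicate 2, 3 or 4, or without trilinolenin replicate 3, 4 or 5. It was also lost without a filter (adjusted p = 0.0556) and with array weights (adjusted p = 0.285). Against the controls its difference of 0.49 was not called (adjusted p = 0.127). Atxn1, a transcriptional repressor, was lower than with the other oils, by -0.52 ± 0.10 (adjusted p = 0.0171), with oil replicate 5 at 6.27 and the other 4 hearts between 6.84 and 7.34. It was not called without oil replicate 5 (-0.35, adjusted p = 0.193) or oil replicate 1 (-0.49, adjusted p = 0.0923), and the mean of its probe sets gave -0.29. Cyp1b1 was 1.02 ± 0.24 higher than with trilinolein (adjusted p = 0.0403), 0.67 ± 0.24 higher than with triolein (adjusted p = 0.468) and 0.57 ± 0.24 higher than with trilinolenin (adjusted p = 0.33). Meox2 was lower than with trilinolein by -0.71 ± 0.15 (adjusted p = 0.0266) and Sox18 higher by 0.48 ± 0.12 (adjusted p = 0.0468). Neither was called against the other oils. Meox2 differed by -0.25 from triolein (adjusted p = 0.812) and by -0.37 from trilinolenin (adjusted p = 0.332). For Sox18 these differences were -0.01 (adjusted p = 0.99) and 0.13 (adjusted p = 0.765). Named after their values were seen, Slc38a2, an amino acid transporter, and Pgam1, a glycolytic enzyme, were higher than with trilinolein (0.54 and 0.49) and with trilinolenin (0.50 and 0.49), and Arrdc3, an arrestin domain gene, was lower (-0.71 and -0.80). Cmpk2, a mitochondrial kinase induced by interferon, was the 1 gene called against triolein (-1.17 ± 0.23, adjusted p = 0.0406), and 7 genes were called without oil replicate 4. The 18-carbon comparisons moved with single hearts too: against the mean of the 3 oils the count ran from 0 without oil replicate 1 to 18 without oil replicate 4.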

How the data were processed

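Per the submitters' processing notes the authors made the deposited log2 values with GCRMA 2.2.0, a method that removes background with probe sequence in mind, equalises the arrays and combines the probes of a set. The scanner software is not given in the sources used here. Values were used as deposited. Of 45101 probe sets, 34958 had 1 gene symbol, 932 several and 9211 none. Only the first were used, with the brightest probe set over the 55 arrays for each of 18194 genes. Ucp2 and Cpt1b were not analysed here. Models were fitted with limma 3.58.1 in R 4.3.3, as 1 mean for each of 12 groups with a common variance (43 residual and 3.253 prior degrees of freedom), and p-values were adjusted by Benjamini and Hochberg over 8238 genes. RefSeq promoters were found for 6761 of these genes, with genes on chromosome 18 not used here. The code was tested on simulated data. Errors of differences are standard errors, and the number of arrays limits the precision. Alternatives were other filters, the mean of probe sets, quantile normalisation, array weights, another variance prior, a replicate block, fewer groups and leaving out hearts.

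The members, gene lists and tests were chosen with earlier results of these data known. The rule named the 15 largest called rises and 15 largest called falls whose oil hearts all lie on 1 side of the control mean, up to 4 called genes of each list, 18 measured index genes, and called genes against the 18-carbon oils.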

Additional observations from a re-analysis of the deposited data

Results flagged for a closer look

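A heart was flagged where its value lay far from the other 4 of its group, by Dixon's test at the 95% level, over 170 groups looked at (the 85 named genes with the oil and in controls). Chance flags about 1 in 20 groups, and 12 were flagged, 3 of them in oil replicate 5. In that heart Aplnr read 2.85 against 5.73 to 6.56, Nr3c1 7.92 against 8.40 to 8.54 and Nrep 4.01 against 5.47 to 5.93. In oil replicate 1 Adh1, an alcohol dehydrogenase, read 6.75 against 8.33 to 8.51. In control replicate 1 Acot1 read 4.73 against 3.85 to 4.06, Angptl4 7.79 against 6.87 to 7.11 and Lipe 6.58 against 6.14 to 6.26. In control replicate 2 Chac1 read 4.65 against 4.14 to 4.25. In control replicate 3 Cd163 read 6.27 against 6.66 to 6.73 and Nrep 6.83 against 6.42 to 6.46. In control replicate 5 Acer2 read 7.71 against 6.18 to 6.52 and Slc3a2 7.91 against 7.58 to 7.65. The cause was not tested.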

How the results depend on the processing

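The count of 292 genes in KO hearts lay between 202 and 353 under other filters, probe set means, quantile normalisation, array weights and another variance prior. It was 12 with only the compared groups in the fit, 43 to 505 with each heart left out, and 68 without both oil hearts of array weight under 0.5 (57 shared with the 292), an alternative chosen after seeing the data. In WT hearts 153 became 56 without a filter, 411 with array weights, 13 with only the compared groups and 0 to 250 with each heart left out (0 without control replicate 2). The KO minus WT count was 0 in every alternative. Against the mean of the 18-carbon oils 2 became 1 without a filter, 15 with probe set means, 1 with array weights, 0 with only the compared groups and 0 to 18 with each heart left out. Against triolein 1 became 0 without a filter, over the higher minimum of 100, with probe set means, with array weights and with only the compared groups, 2 with quantile normalisation or the other prior, and 0 to 7 with each heart left out. Against trilinolein 32 became 10 without a filter, 5 with array weights, 0 with only the compared groups and 2 to 56 with each heart left out. Against trilinolenin 27 became 6, 0, 0 and 0 to 55.

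Same-numbered KO oil and control hearts correlated at -0.145 to 0.1 in their deviations, so the numbers were not taken as pairs. With the replicate block 317 genes were called in KO hearts, 98 in WT hearts and 20 against trilinolein.

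Genes near 0 changed sign: with a heart left out Nppb ran from -0.26 to 0.22, Ppard from -0.12 to 0.03 and Ucp3 from -0.02 to 0.32. Ucp3 was -0.00479 with probe set means, -0.09 with array weights and -0.05 without the low-weight hearts. The Actb 3′ to 5′ difference between groups was -0.0168 to 0.0298 with a heart left out. For the named genes 1536 values kept direction and side of the threshold, 475 lost the call, 9 gained it and 13 changed sign. The cause was not tested.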

Other observations

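Hamp, the iron hormone hepcidin, had the largest difference of all tested genes in KO hearts, 2.15 ± 0.74 on the log2 scale, and was not called (adjusted p = 0.086). In WT hearts it differed by -1.01 ± 0.85 (adjusted p = 0.64). Cdkn1a, a cell cycle inhibitor on the glucocorticoid list, differed by 1.50 ± 0.47 in KO hearts (adjusted p = 0.0615). Both were named after their values were seen.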
